A study of Mus musculus with 4 samples.

Results

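The regulator of G-protein signalling (RGS) genes Rgs1, Rgs2, Rgs3, Rgs10, Rgs14, Rgs16 and Rgs19 were followed through single-cell RNA sequencing (scRNA-seq) of brain-associated T cells, 7 genes of the 31053 in the count matrices. They were taken by name, and all 7 were detected. The matrices came from 4 libraries of CD4 and CD8 T cells sorted by flow cytometry from female C57BL/6 mice: young meninges, aged meninges, young choroid plexus and aged choroid plexus. Young mice were 10 weeks old and aged mice 18 months old, no genetic change or treatment is given for any of them, and each library was pooled from 5 mice. Groups had 1 library each, without replicates, so nothing could be tested across mice and the text gives no p-value. Every comparison of age or tissue is therefore between single libraries, in which the pool of mice and the library cannot be told apart from the age or tissue.

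RGS proteins bind the GTP-loaded alpha subunit of heterotrimeric G proteins and speed the hydrolysis of its GTP, which shortens the signal of the receptor that switched it on. In T cells the receptors concerned include those for chemokines and sphingosine 1-phosphate, which guide cells into, through and out of tissue. Rgs1, Rgs2 and Rgs16 are small family members whose transcripts are known to be inducible in lymphocytes, and Rgs1 is widely known as a transcript of tissue-resident T cells. Rgs10 and Rgs19 are also small, Rgs3 has long and short forms, and Rgs14 carries further domains that bind Ras-like proteins and inactive alpha subunits.

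In GENCODE vM21 positions on GRCm38, 3 of the 7 genes lie on chromosome 1. Rgs2 (ENSMUSG00000026360) spans chr1:143999338-144004161 and Rgs1 (ENSMUSG00000026358) chr1:144242296-144249242, both on the minus strand and 238 kb apart with 2 genes between them, of which 1, Rgs13, codes for protein. Rgs16 (ENSMUSG00000026475) spans chr1:153740349-153745468 on the plus strand, 9.49 Mb further on. The others are Rgs19 (ENSMUSG00000002458) at chr2:181688419-181693977 on the minus strand, Rgs3 (ENSMUSG00000059810) at chr4:62559847-62704001 on the plus strand, Rgs10 (ENSMUSG00000030844) at chr7:128373621-128418758 on the minus strand and Rgs14 (ENSMUSG00000052087) at chr13:55369732-55384687 on the plus strand. Annotated antisense genes overlap Rgs16 (Gm28513) and Rgs3 (Gm11209), and both have their own entry in the count matrices. The sources used here do not say how strand was set in the counting, and whether reads of those pairs were kept apart was not checked. Gm15503, which overlaps Rgs10 on the same strand, has no entry in the matrices and was not analysed here.

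The promoters of Rgs2 and Rgs16 are shown because the age and tissue differences of these inducible transcripts are described below, for Rgs2 beside early response genes. The sequences are from RefSeq (GRCm38.p6), 5′ to 3′ on the gene's own strand, and end just before the annotated start of the gene. The first is chr1:144004162-144004399 on the minus strand (238 bases) and the second chr1:153740103-153740348 on the plus strand (246 bases), and capitals mark the cyclic AMP response element half-site TGACG or its reverse complement CGTCA.
Rgs2: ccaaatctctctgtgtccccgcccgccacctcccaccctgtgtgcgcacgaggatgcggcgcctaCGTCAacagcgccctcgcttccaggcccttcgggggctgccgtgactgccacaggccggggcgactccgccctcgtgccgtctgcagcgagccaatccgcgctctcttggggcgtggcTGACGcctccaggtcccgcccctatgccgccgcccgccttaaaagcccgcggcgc
Rgs16: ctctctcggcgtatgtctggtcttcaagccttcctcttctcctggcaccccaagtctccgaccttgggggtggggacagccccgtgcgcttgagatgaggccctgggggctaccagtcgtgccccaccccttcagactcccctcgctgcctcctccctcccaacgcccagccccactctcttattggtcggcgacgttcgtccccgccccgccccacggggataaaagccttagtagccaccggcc
Rgs2 held 2 half-sites, 173 and 55 bases before the start, and Rgs16 held 0. Of 32851 promoters, 16.7% held at least 1 half-site in a window of 238 bases and 17.4% in a window of 246 bases, both strands searched. The AP-1 motif TGANTCA was in neither promoter, against 6.54% and 6.69% of promoters for the 2 window lengths. The GC box GGGCGG, on either strand, occurred 4 times in Rgs2 and 2 times in Rgs16, and at least once in 31.0% and 32.2% of promoters. These are matches of letters and say nothing of whether a factor binds there.

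T cells were called as cells with a UMI (unique molecular identifier, which stands for 1 captured RNA molecule) of Cd3d, Cd3e or Cd3g. They were split into CD4 (a Cd4 UMI, none of Cd8a or Cd8b1), CD8 (a Cd8a or Cd8b1 UMI, none of Cd4) and neither (no UMI of the 3 genes). The study reports sorting CD4 and CD8 T cells by surface staining, whereas the classes here rest on RNA. By RNA alone, cells of the neither class whose co-receptor RNA was not captured cannot be told from T cells that lack it. Ordered as young meninges, young choroid plexus, and the aged meninges and aged choroid plexus, there were 254, 160, 362 and 230 CD4 cells, 254, 160, 281 and 473 CD8 cells, and 481, 269, 735 and 358 neither cells, 4017 in all. T cells held a median of 3198, 2978, 2312.5 and 2838.5 UMIs. Any 2 libraries shared 0 or 1 cell barcodes. The naive-like list (Ccr7, Lef1, Tcf7, S1pr1 and Klf2) was higher in young cells, with a summed level of 1502 to 2918 CPM (UMIs of a gene per 1000000 UMIs) in young and 442 to 930 CPM in aged profiles, and the effector memory-like list (Cd44, Cxcr3, Cxcr6, S100a6 and Itgb1) had 780 to 1926 and 2553 to 4229 CPM. These lists moved with age beside every age result below, and levels inside gates by state are given after them. Of other cell types, the summed macrophage list reached 165 CPM and the natural killer cell list 37.2 CPM. Among the 12 library-by-class profiles, the macrophage markers Adgre1 and Mrc1 were at 0 in 12 and 10. Cd68, C1qb, Lyz2 and C1qa were at 0 in only 1, 3, 5 and 6, so macrophage markers were detected. The summed gamma-delta T cell list (Trdc, Tcrg-C1, Tcrg-C2, Tcrg-C4 and Trdv4) reached higher values in aged profiles. It had 7.90 to 23.7 CPM in young and 5.93 to 91.7 CPM in aged meninges. In young and aged choroid plexus it had 6.04 to 18.9 and 12.5 to 181 CPM. Trdc itself was at 0 in 3 of the 12 profiles, and fewer than 20 cells of each library had a Trdc UMI. Without those cells the meningeal CD4 age differences in log2(CPM + 10) were 1.13 for Rgs2 and 1.36 for Rgs16, against 1.14 and 1.37 with them. Cells with only the other list genes stayed in, and the part of the list in the age results was not tested. Levels of the members are given as CPM of the UMIs summed over a class, with exact 95% Poisson intervals, and ratios with exact conditional binomial intervals. All intervals cover counting error only and treat UMIs as independent, although several can come from 1 cell.

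Rgs1, which acts on Gi- and Gq-type alpha subunits, ranged from 39.4 to 539 CPM over the 12 profiles and was higher in aged than in young libraries of both tissues. In CD4 T cells its level was 153 CPM (129 to 182) in young meninges, 48.3 (31.0 to 71.9) in young choroid plexus, 446 (406 to 490) in aged meninges and 180 (150 to 214) in aged choroid plexus. In CD8 T cells the same 4 libraries held 126, 39.4, 320 and 109 CPM, and in neither T cells 179, 55.8, 539 and 172 CPM. In each class aged meninges stood highest and young choroid plexus lowest, and the interval of aged meninges overlapped none of the other 3 libraries of its class. Ordered over all 12 profiles, 7 of the 11 neighbouring pairs of Rgs1 had overlapping intervals, and the 3 aged meningeal profiles, neither before CD4 before CD8, were each apart from the next. On the scale of log2(CPM + 10), aged exceeded young meninges by 1.48 in CD4 (ratio of CPM 2.40 to 3.55), 1.28 in CD8 (2.07 to 3.15) and 1.54 in neither T cells (2.63 to 3.47). In the choroid plexus the differences were 1.70 (2.40 to 6.03), 1.27 (1.82 to 4.38) and 1.47 (2.21 to 4.39).

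**Figure D1:**
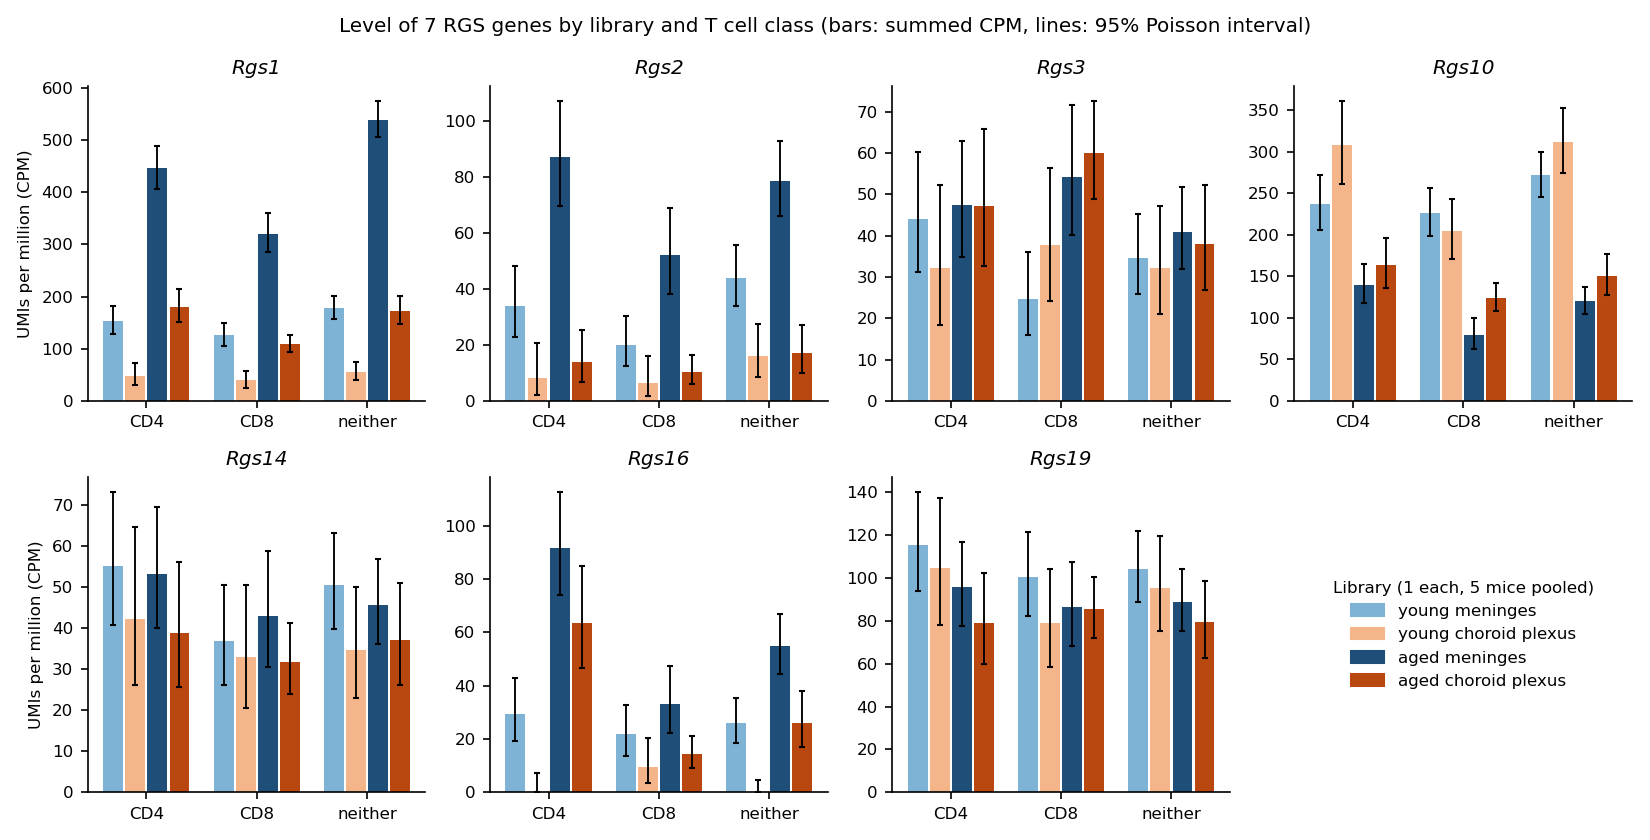
Level of each of the 7 RGS genes in CPM (vertical axis, its own scale in each panel) by T-cell class and library, with bars for UMIs summed over all cells of a class and lines for the exact 95% Poisson interval. Rgs1 is highest in the aged meninges of every class (320 to 539 CPM), Rgs10 is higher in the young than in the aged libraries, and Rgs16 is at 0 in 2 young choroid plexus profiles.

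Summed UMIs do not tell more cells with a transcript from more UMIs per cell, so the share of cells with an Rgs1 UMI was also taken, with every cell thinned to 1000 UMIs. In the same order of libraries the share was 11.1%, 2.52%, 26.7% and 14.0% of CD4, 9.45%, 3.18%, 23.4% and 12.2% of CD8, and 8.86%, 3.0%, 29.0% and 13.6% of neither T cells. Without thinning, 25.2%, 7.5%, 45.9% and 29.1% of CD4 T cells had a UMI. In cells with a Ccr7 UMI and none of Cxcr3 or Cxcr6, a naive-like gate in which little Rgs1 is expected from its known expression, the thinned share was 4.73%, 0.707%, 14.6% and 8.47%, at medians of 3196, 2924, 2757.5 and 3302 UMIs per cell. The shares of the classes lay above that of the naive-like gate of their own library, some with overlapping intervals, and both were higher in aged than in young libraries. The gate is itself part of these classes, with 529, 285, 90 and 59 cells in the same order of libraries. Its share and those of the classes are thus not independent. Cells with at least 5 Rgs1 UMIs made up 7.76% (57 cells) of the neither class in aged and 1.87% (9 cells) in young meninges, and the highest count in 1 cell was 29, in young meninges.

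Rgs2, known for its action on Gq, was also highest in the aged meninges. Its levels in young meninges, young choroid plexus, and the aged meninges and aged choroid plexus were 33.9, 8.05, 86.9 and 13.9 CPM in CD4, 19.9, 6.30, 51.9 and 10.4 CPM in CD8, and 43.8, 16.1, 78.5 and 17.0 CPM in neither T cells. The 3 aged meningeal profiles were the 3 highest, although every neighbouring pair in the order of 12 overlapped. Aged exceeded young meninges by 1.14 on the log2(CPM + 10) scale in CD4 (ratio 1.68 to 4.03), 1.05 in CD8 (1.53 to 4.6) and 0.72 in neither T cells (1.33 to 2.44). In the choroid plexus the differences were 0.40, 0.32 and 0.05, each with an interval that included a ratio of 1, from 10 against 4 UMIs in CD4, 18 against 4 in CD8 and 17 against 13 in neither T cells.

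Rgs16, which like Rgs1 acts on Gi and Gq, was the sparsest member, with a UMI in 4.71% of the 4017 cells. In CD4 T cells it gave 29.3 CPM (26 UMIs), 0 (0 UMIs), 91.8 (93 UMIs) and 63.7 CPM (46 UMIs) in young meninges, young choroid plexus, and the aged meninges and aged choroid plexus. None of the 160 young choroid plexus CD4 cells had a UMI, where up to 2.28% of cells could by the exact binomial limit, against 3.54%, 9.12% and 9.13% of cells in the other libraries without thinning. In CD8 T cells the levels were 21.8, 9.46, 33.1 and 14.4 CPM, and in neither T cells 25.9, 0, 54.8 and 26.1 CPM. Aged exceeded young meninges by 1.37 on the log2(CPM + 10) scale in CD4 (ratio 2.01 to 5.04) and by 0.85 in neither T cells (1.44 to 3.16), while the CD8 difference of 0.44 had an interval that included 1. Against the limit that 3 counts set in young choroid plexus, Rgs16 was at least 10.6-fold higher in aged CD4 and at least 7.01-fold higher in aged neither T cells. The exact intervals of the same ratios start at 8.24 and 5.30. In aged meninges, 1 CD4 cell held 20 of the 93 UMIs. With classes called from at least 2 UMIs, the meningeal CD4 difference was -0.14 (0.45 to 1.75). That interval included 1, so the higher aged level was not seen with this way of calling the class.

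Rgs10, a Gi-directed member, ran the other way. Its levels in young meninges, young choroid plexus, and the aged meninges and aged choroid plexus were 237 (206 to 271), 308 (261 to 361), 139 (117 to 164) and 163 CPM (135 to 196) in CD4 T cells. They were 226, 205, 79.5 and 124 CPM in CD8 and 272, 311, 120 and 150 CPM in neither T cells. Within each class both young libraries stood above both aged ones with no overlap of intervals. Aged was lower than young meninges by -0.73 on the log2(CPM + 10) scale in CD4 (ratio 0.471 to 0.731), -1.40 in CD8 (0.266 to 0.46) and -1.11 in neither T cells (0.372 to 0.524), and in the choroid plexus by -0.87 (0.414 to 0.679), -0.68 (0.484 to 0.758) and -1.0 (0.392 to 0.594). After thinning, cells with an Rgs10 UMI made up 19.8%, 26.4%, 12.1% and 14.0% of CD4, 19.3%, 20.4%, 7.30% and 8.58% of CD8, and 20%, 27.0%, 10.6% and 14.8% of neither T cells. The summed level of 4 B cell genes (Cd79a, Cd79b, Ms4a1 and Ighm) differed with age too, at 206 to 263 CPM in young and 65.2 to 205 CPM in aged meninges, and at 151 to 244 and 80.7 to 213 CPM in young and aged choroid plexus. Of these genes, Cd79a was at 0 in 7 and Ms4a1 in 6 of the 12 profiles, whereas Cd79b and Ighm had UMIs in every profile. Leaving out cells with a UMI of any B cell, macrophage, neutrophil, natural killer cell, platelet, erythrocyte or fibroblast marker kept 2342 of 4017 cells. The B cell list alone was found in 14.6% to 51.2% of the cells of a profile. In the kept cells the Rgs10 differences were -1.05, -1.44 and -1.37 for meningeal and -0.69, -0.65 and -1.18 for choroid plexus T cells.

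**Figure D2:**
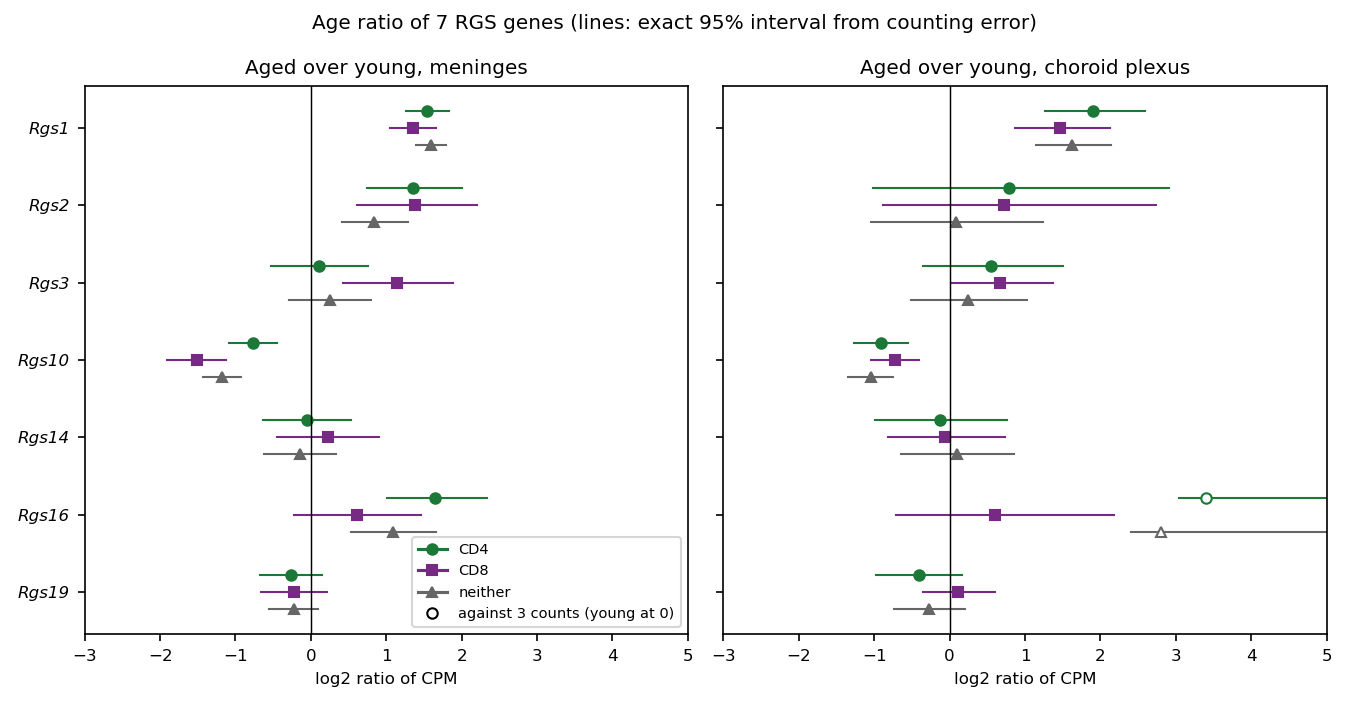
Log2 ratio of CPM, aged over young, for each RGS gene in the meninges (left) and the choroid plexus (right), with 1 symbol per T-cell class, lines for the exact 95% interval and open symbols for ratios set against 3 counts where the young library held 0 UMIs. Rgs1 lies right of 0 and Rgs10 left of 0 in all 3 classes of both tissues, while Rgs14 and Rgs19 have intervals that cross 0 throughout.

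The remaining 3 members spanned narrower ranges. Rgs3, which acts on Gi and Gq, measured 44.0, 32.2, 47.4 and 47.1 CPM in CD4, 24.6, 37.8, 54.1 and 59.9 CPM in CD8, and 34.5, 32.2, 41.0 and 38.1 CPM in neither T cells, and only its CD8 age differences, 0.89 in meninges (ratio 1.34 to 3.69) and 0.55 in choroid plexus (1.01 to 2.58), had intervals that excluded 1. Rgs14 ranged from 31.7 to 55.3 CPM and Rgs19, also known as GAIP, from 78.8 to 115 CPM over the 12 profiles. For both, no age or tissue ratio had an interval that excluded 1.

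A rule of size gave the count of members over all these comparisons: a log2 ratio of CPM + 10 of at least 1 in either direction, with at least 20 UMIs in the higher group. Between aged and young meninges, 3 members passed in CD4 (Rgs1, Rgs2 and Rgs16, higher), 3 in CD8 (Rgs1 and Rgs2 higher, Rgs10 lower) and 2 in neither T cells (Rgs1 higher, Rgs10 lower). Of all genes with enough UMIs, 6.1%, 5.03% and 4.86% passed in the same 3 classes. Between aged and young choroid plexus, 2 members passed in CD4 (Rgs1 and Rgs16, higher), 1 in CD8 (Rgs1, higher) and 3 in neither T cells (Rgs1 and Rgs16 higher, Rgs10 lower), where 9.19%, 3.33% and 6.44% of all genes did. The Rgs2 call in meningeal CD8 T cells lies near the threshold and fell under it in 7 of 13 alternatives, and those of Rgs2 and Rgs16 in meningeal CD4 T cells each in 4 of 13. Members with too few UMIs to be judged, such as Rgs2 in the choroid plexus, count as not passing. The median log2 age ratio of the judged members was 0.09, 0.44 and 0.20 in meningeal CD4, CD8 and neither T cells, against 0.08, 0.04 and 0.05 for all genes, and 0.17, 0.21 and 0.13 in the choroid plexus, against 0.16, 0.12 and 0.13.

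Rgs1, Rgs2 and Rgs16 were lower in the choroid plexus than in the meninges, for Rgs16 in young CD8 T cells with an interval that included a ratio of 1. For Rgs1 the difference on the log2(CPM + 10) scale was -1.49, -1.46 and -1.52 in young CD4, CD8 and neither T cells and -1.26, -1.47 and -1.59 in the aged ones. For Rgs2 it was -1.28, -0.87 and -1.04 when young and -2.02, -1.60 and -1.71 when aged. Rgs16 was at least 4.86-fold lower in young CD4 and at least 6.96-fold lower in young neither T cells, against the limit of 3 counts, where the exact intervals of the ratio reach up to 0.272 and 0.185. In young CD8 T cells it was 9.46 against 21.8 CPM, from 6 against 23 UMIs (ratio 0.145 to 1.10). In aged CD4, CD8 and neither T cells it differed by -0.47 (ratio 0.476 to 0.998), -0.82 (0.245 to 0.764) and -0.85 (0.295 to 0.74). Rgs10 did not share this direction: it was 0.36 higher in young CD4 (1.05 to 1.61), 0.58 higher in aged CD8 (1.19 to 2.06) and 0.30 higher in aged neither T cells (1.01 to 1.55), with intervals that included 1 elsewhere. By the rule of size 3, 1 and 3 members were lower in young CD4, CD8 and neither T cells and 2, 2 and 2 in aged ones. Of all genes 3.75%, 2.72% and 2.07% passed in the young and 2.26%, 1.38% and 1.49% in the aged comparison. The tissue comparisons share libraries with those of age.

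The early response list (Fos, Fosb, Jun, Junb, Jund, Egr1, Ier2, Dusp1, Atf3, Hspa1a, Hspa1b and Nr4a1), whose transcripts can rise when tissue is digested, moved with tissue and age as well. Its summed level in CD4, CD8 and neither T cells was 3857, 2343 and 3686 CPM in young meninges, 711, 506 and 736 in young choroid plexus, 5604, 2887 and 6037 in aged meninges, and 1240, 680 and 1124 in aged choroid plexus. So meninges exceeded choroid plexus in every class at both ages, by much more than aged exceeded young. Haemoglobin transcripts also differed by tissue, at 13.2 to 483 CPM in the meningeal profiles and 0 to 4.03 in those of the choroid plexus. The part of haemoglobin-bearing material in the tissue differences was not tested.

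**Figure D3:**
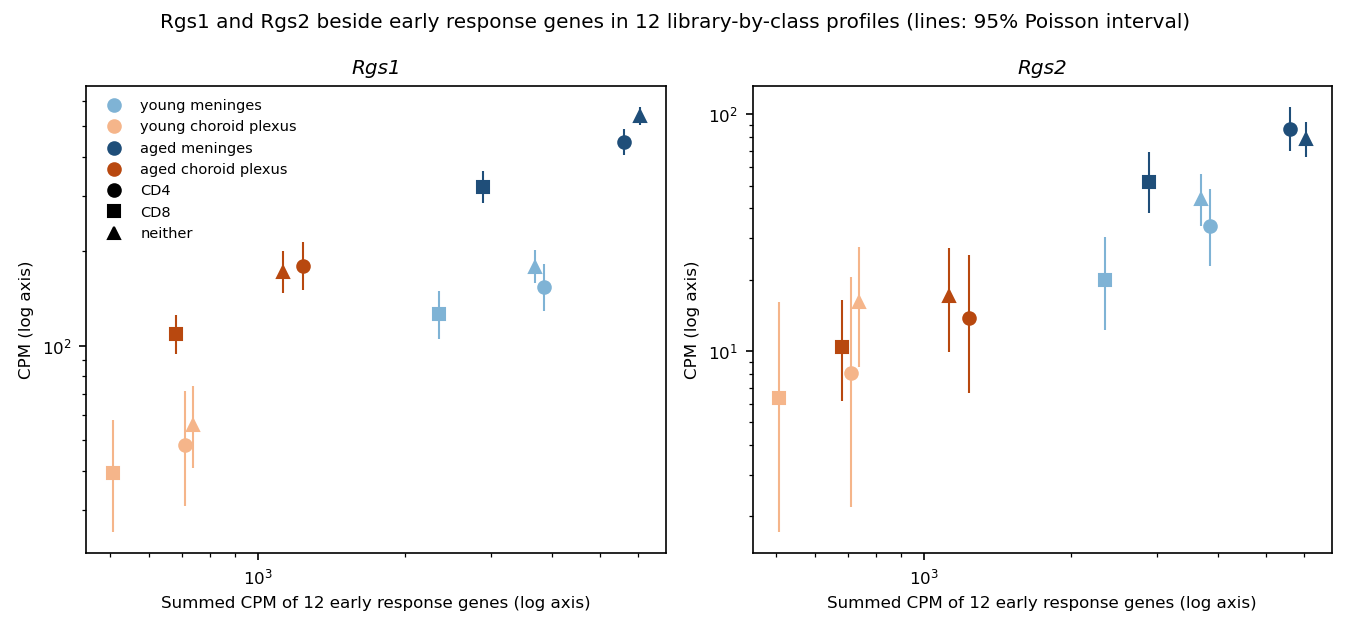
Level of Rgs1 (left) and Rgs2 (right) in CPM against the summed CPM of 12 early response genes, both on log axes, for the 12 library-by-class profiles, with lines for the exact 95% Poisson interval. Rgs2 is 6.30 to 17.0 CPM in the choroid plexus profiles, where the early response level is low, and 19.9 to 86.9 CPM in the meningeal ones, while the aged choroid plexus (dark orange, 109 to 180 CPM of Rgs1) reaches the Rgs1 level of the young meninges at a lower early response level.

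Members were therefore also summed over cells without a Fos or Dusp1 UMI, a choice made after the data were seen. It kept 2687 of 4017 cells, and a cell with few UMIs is more likely to be kept. Across the 12 profiles Dusp1 was the gene most like Rgs2 (Pearson's r 0.97). Leaving out Dusp1-positive cells may thus lower Rgs2 by itself, which was not tested. What raised the early response list in these cells was not tested either. In the kept cells Rgs1 measured 105, 32.8, 332 and 185 CPM in CD4, 128, 39.5, 305 and 106 CPM in CD8, and 134, 57.7, 423 and 150 CPM in neither T cells. On the log2(CPM + 10) scale its meningeal age differences were 1.57, 1.19 and 1.59, against 1.48, 1.28 and 1.54 over all cells. Those of the choroid plexus were 2.19, 1.23 and 1.24, against 1.70, 1.27 and 1.47. Its tissue differences in the aged libraries were -0.81, -1.44 and -1.44. Rgs2 measured 25.2, 8.74, 32.2 and 12.9 CPM in CD4, 22.7, 6.86, 12 and 9.35 CPM in CD8, and 23.8, 16.5, 40.0 and 19.7 CPM in neither T cells, and its meningeal age differences were 0.26 (ratio 0.515 to 3.19), -0.57 (0.161 to 1.56) and 0.56 (0.905 to 3.18), none of which passed the rule. In the aged libraries the Rgs2 tissue differences were -0.88 (0.142 to 1.07), -0.19 (0.285 to 2.45) and -0.75 (0.254 to 0.934), none past the rule, and in the young ones -0.91, -0.96 and -0.35, also none. The Rgs16 age differences were 0.78 (0.805 to 6.43), -0.25 and 0.64 in the meninges, none past the rule, and 2.46, 0.70 and 1.73 in the choroid plexus, where the CD4 and neither intervals start at 5.23 and 4.17. Its aged CD4 tissue difference was 0.30 (0.648 to 2.72), against -0.47 over all cells. The age differences of Rgs10 were -1.10, -1.40 and -1.41 in meninges and -0.98, -0.78 and -1.12 in choroid plexus in these cells.

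**Figure D4:**
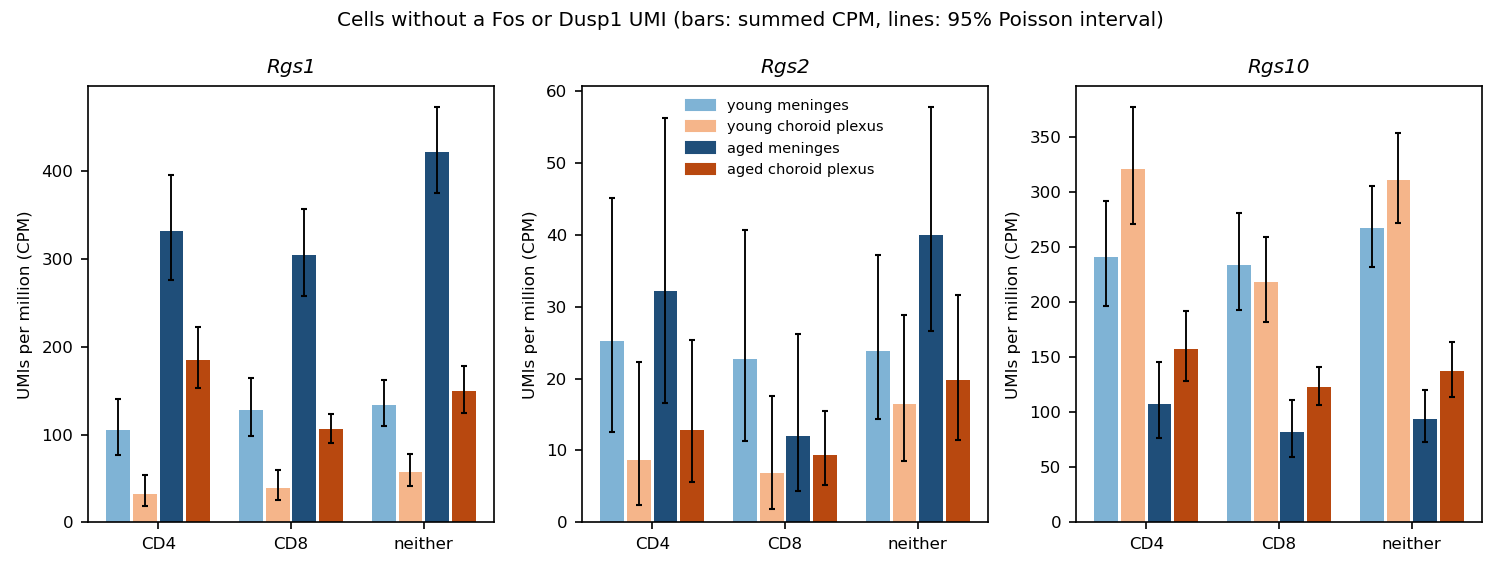
Level of Rgs1, Rgs2 and Rgs10 in CPM in T cells without a Fos or Dusp1 UMI, by class and library, with bars for summed UMIs and lines for the exact 95% Poisson interval. The age order of Rgs1 and Rgs10 stays as over all cells, whereas for Rgs2 the aged and young meningeal intervals overlap in every class.

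CD8 and CD4 T cells were compared within each library. Rgs16 was lower in CD8 than in CD4 by -1.24 on the log2(CPM + 10) scale in aged meninges (ratio 0.231 to 0.55) and by -1.59 in aged choroid plexus (0.133 to 0.376), and it was the 1 member to pass the rule of size, in those 2 libraries only. In cells without a Fos or Dusp1 UMI the aged meningeal difference was -0.24 (0.351 to 1.86). Of all genes 2.81%, 3.54%, 4.51% and 3.35% passed in young meninges, young choroid plexus, and the aged meninges and aged choroid plexus. Rgs1 was lower in CD8 by -0.47 in aged meninges (0.617 to 0.834) and -0.68 in aged choroid plexus (0.481 to 0.762), with young intervals that included 1. Rgs10 was lower in CD8 by -0.57 in young choroid plexus, -0.74 in aged meninges and -0.37 in aged choroid plexus, and by -0.06 in young meninges, where the interval included 1. Rgs2 was lower by -0.65 in aged meninges (0.41 to 0.861) and Rgs3 by -0.64 in young meninges (0.327 to 0.942).

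Cells were then gated by genes that are no members, pooling the 3 classes of a library unless a class is named, so that gated and other cells can differ in their mix of classes. Ccr7 is the lymph node homing receptor of naive T cells. Rgs1 was lower in Ccr7-positive than in other T cells in all 4 libraries, at 106 against 232 CPM in young meninges, 11.4 against 93.1 in young choroid plexus, 232 against 490 in aged meninges and 62.6 against 154 in aged choroid plexus. Rgs3 was lower in them too, at 15.4 against 61.9, 24.6 against 45.4, 18.6 against 49.7 and 29.1 against 54.2 CPM. Rgs10 was higher in Ccr7-positive cells, at 301 against 170, 343 against 194, 172 against 108 and 195 against 132 CPM. For each of these 3 members the interval of the ratio over the pooled classes excluded 1 in all 4 libraries. Within classes that of Rgs1 included 1 in aged meningeal CD4 T cells (416 against 450 CPM) and aged choroid plexus CD8 T cells (78.8 against 113 CPM). The Rgs3 interval excluded 1 only in young meningeal CD4 and neither and in young choroid plexus CD4 T cells. That of Rgs10 included 1 in young choroid plexus CD4, aged meningeal neither, and aged choroid plexus CD4 and neither T cells. For Rgs19 the interval over the pooled classes included 1 in all 4 libraries, for example at 106 against 105 CPM in young meninges.

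Age differences were also taken inside gates by state. Cxcr3 and Cxcr6 are receptors of effector and tissue-resident T cells. In cells with a UMI of either and none of Ccr7, Rgs1 was 309 CPM in young and 497 in aged meninges, a log2(CPM + 10) difference of 0.67 (ratio 1.39 to 1.86). In the choroid plexus it was 119 and 175 CPM, a difference of 0.53 (1.11 to 2.0). In cells with a Ccr7 UMI and none of Cxcr3 or Cxcr6, it was 78.4 and 181 CPM in the meninges (1.11, ratio 1.64 to 3.22) and 9.01 and 42.2 CPM in the choroid plexus (1.46, ratio 1.60 to 13.9). Over the pooled classes, aged exceeded young in both gates and both tissues. Gates by a single receptor differed by class. Rgs1 in Cxcr3-positive CD4 T cells was 383 and 491 CPM in the meninges (0.985 to 1.68). In the choroid plexus it was 214 and 229 CPM (0.632 to 1.92). Choroid plexus Cxcr3-positive CD8 T cells also had an interval that included 1, and the other Cxcr3-positive classes did not. Only in meningeal CD8 T cells were Ccr7-positive cells lower when aged, at 88.5 and 59.2 CPM (0.258 to 1.46). In Gzmk-positive cells, marked by a granzyme of memory CD8 T cells, meningeal Rgs1 was 370 CPM in 52 young and 426 in 391 aged cells, a ratio interval of 0.918 to 1.45 that included 1. In the choroid plexus Rgs1 was 68.6 CPM in 33 young and 142 CPM in 339 aged Gzmk-positive cells.

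Rgs10 was lower with age in the Ccr7-positive gate without Cxcr3 or Cxcr6, at 315 and 203 CPM in young and aged meninges (-0.61, ratio 0.482 to 0.851) and 356 and 216 CPM in the choroid plexus (-0.70, 0.435 to 0.827). In the Cxcr3- or Cxcr6-positive gate without Ccr7 the aged value was the higher one, as young and aged measured 74.9 and 95.6 CPM in the meninges (0.32, 0.943 to 1.75, which includes 1) and 94.8 and 136 CPM in the choroid plexus (0.48, 1.04 to 2.02). In the same gate, over the pooled classes, Rgs3 was 95.3 and 48.5 CPM in young and aged meninges (-0.85, 0.372 to 0.701). In the choroid plexus it was 73.3 and 53.7 CPM, with an interval that included 1. Meningeal Cxcr3-positive cells, with or without Ccr7, differed by class. Their CD4 part fell with age from 98.4 to 51.0 CPM of Rgs3 (0.276 to 0.992). Their neither part fell from 101 to 41.3 CPM (0.229 to 0.728). Their CD8 part measured 37.8 CPM when young and 59.1 when aged, with an interval that included 1 (0.736 to 3.60). Rgs16 was lower with age in the meningeal Cxcr3- or Cxcr6-positive gate without Ccr7, at 72.2 and 38.0 CPM (-0.78, 0.367 to 0.76). The gate pools the classes, so this is not like for like with the higher aged levels over all meningeal CD4 and neither T cells. Within the gate Rgs16 was 121 and 30.4 CPM in CD8 T cells (0.127 to 0.49). These came from 22 UMIs over 37 young cells and 18 UMIs over 188 aged cells. Several UMIs can come from 1 cell, so this interval can rest on few cells. In CD4 T cells of the gate it was 80.6 and 46.1 CPM (0.302 to 1.11). In neither T cells it was 40.9 and 37.4 CPM (0.476 to 1.85), so both intervals included 1. In the choroid plexus gate Rgs16 was 12.9 and 21.7 CPM, with an interval that included 1.

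**Figure D5:**
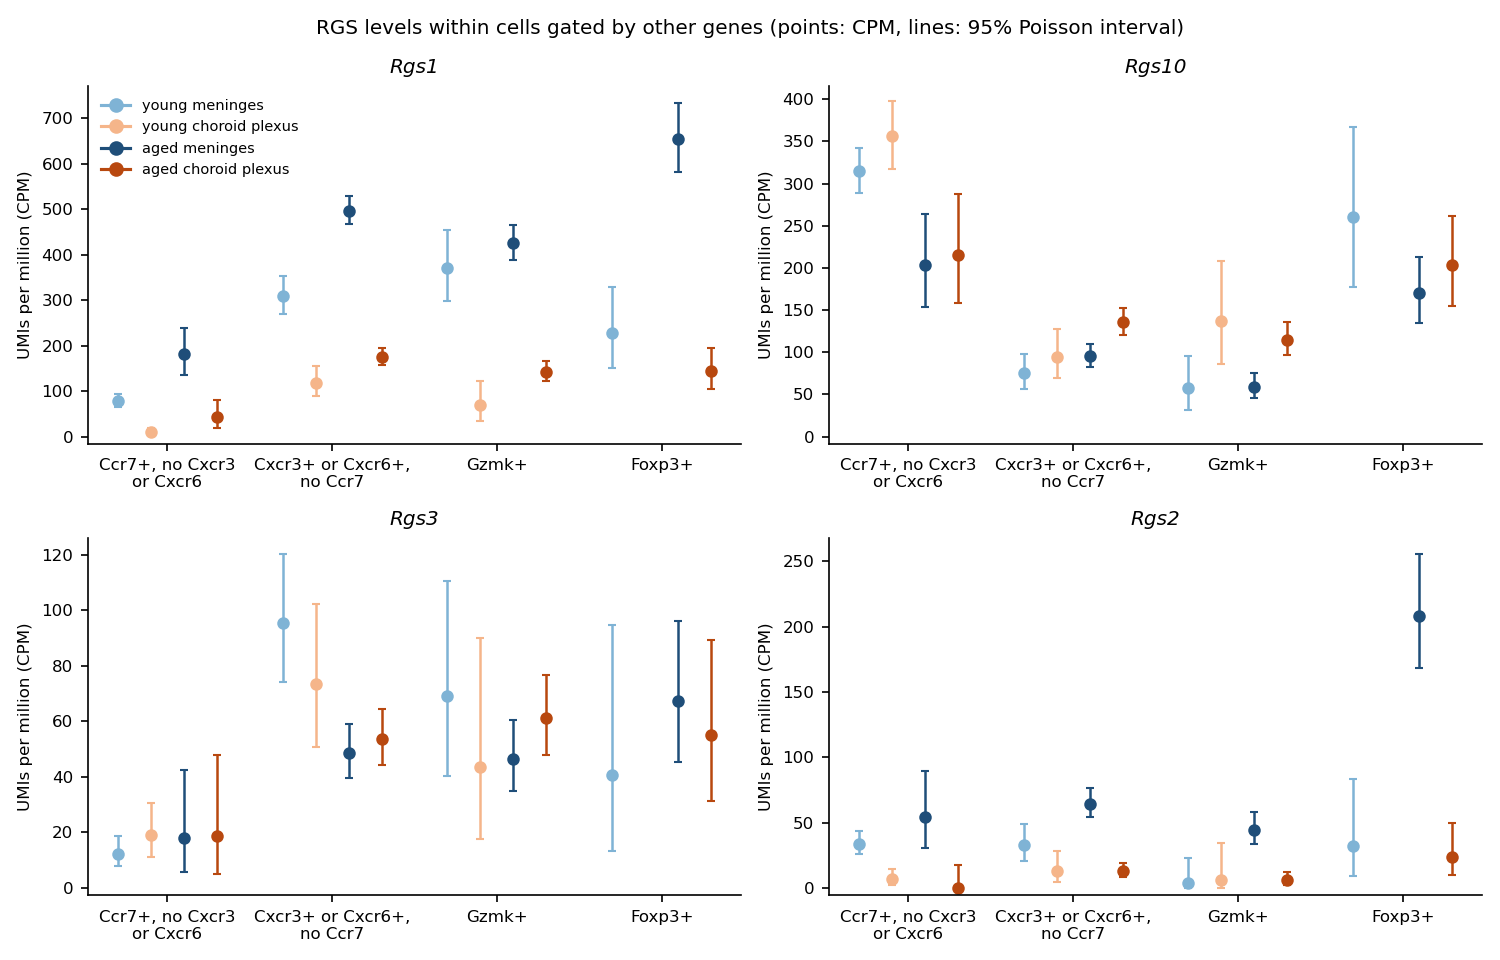
Level of Rgs1, Rgs10, Rgs3 and Rgs2 in CPM within T cells gated by a UMI of other genes, by library, with lines for the exact 95% Poisson interval and no young choroid plexus point for Foxp3, where fewer than 20 cells were found. Rgs2 stands out in Foxp3-positive cells of the aged meninges (208 CPM). Of the gates shown, Rgs10 is highest in Ccr7-positive cells without Cxcr3 or Cxcr6, and it is 203 CPM in Foxp3-positive cells of the aged choroid plexus.

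Foxp3, the lineage factor of regulatory T cells, marked 32 cells of young meninges, 135 of aged meninges and 65 of aged choroid plexus. Rgs2 measured 208 CPM (168 to 255) in the Foxp3-positive cells of the aged meninges, 93 UMIs in 43 cells with at most 8 in 1 cell, against 55.6 CPM in the other T cells (1.74, ratio 2.89 to 4.85). In the Foxp3-positive cells of young meninges (4 UMIs) and aged choroid plexus it was 32.5 and 24.1 CPM. Over the pooled classes, both intervals included a ratio of 1 to the other T cells. Within aged choroid plexus neither T cells it was 54.9 against 13.2 CPM (1.14 to 12.6), which excluded 1. Within CD4 T cells of that library it was 9.79 against 14.5 CPM, with an interval that included 1. Without the Foxp3-positive cells, meningeal CD4 T cells held 35.2 CPM of Rgs2 when young and 52.6 when aged, a difference of 0.47 (0.916 to 2.47) in place of 1.14, which no longer passed the rule. In the other meningeal classes without them, the Rgs2 intervals still excluded 1. CD8 T cells held 19.9 and 41.7 CPM (1.19 to 3.79) and neither T cells 43.8 and 65.0 CPM (1.07 to 2.07). In meningeal CD4 T cells without Foxp3, Rgs16 was 30.5 and 64.8 CPM, a difference of 0.89 (1.31 to 3.54) that also fell under the rule. Rgs1 in Foxp3-positive and other T cells was 227 and 153 CPM in young meninges and 655 and 432 CPM in aged meninges. In aged choroid plexus it was 144 and 142 CPM. Only the aged meningeal interval excluded 1 (1.33 to 1.72). Within aged meningeal CD4 T cells Rgs1 was 380 against 462 CPM (0.632 to 1.06), and within neither T cells 933 against 485 CPM (1.63 to 2.25). Rgs16 was higher in Foxp3-positive than in other T cells of the 3 libraries, at 89.3 against 23.1, 148 against 47.4 and 55.0 against 25.6 CPM. Within CD4 T cells, which could be compared in the aged libraries, it was 206 against 64.8 CPM in aged meninges (2.05 to 4.87) and 49.0 against 66.1 in aged choroid plexus (0.228 to 1.87). Rgs14 was 94.1 against 40.6 CPM in aged meninges and 61.9 against 32.2 in aged choroid plexus, with ratio intervals of 1.60 to 3.31 and 1.10 to 3.19, and within CD4 T cells 1.35 to 4.42 and 0.925 to 5.75, the latter including 1. Rgs10 was 170 against 108 CPM in aged meninges (1.22 to 2.03) and 203 against 134 in aged choroid plexus (1.13 to 1.99). In young meninges, and within CD4 T cells of both aged libraries, its interval included 1.

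Rgs16 was high in a few cells of other gates. Itgae-positive cells, which carry an integrin chain of resident T cells, held 283 CPM in aged meninges, but from 32 UMIs in 5 of 27 cells with 20 UMIs in 1 of them. In young meninges they held 99.4 against 21.2 CPM, and in aged choroid plexus, with 77 such cells, 12.9 against 29.6 CPM with an interval of 0.116 to 1.15. Cells with a UMI of Tnfsf8, which encodes CD153, held 122 CPM against 15.1 in young meninges from 41 UMIs in 6 cells, and 65.6 against 18.3 CPM in aged choroid plexus from 47 UMIs in 20 cells. In aged meninges, which had 248 such cells, the levels were 69.2 against 57.4 CPM (0.861 to 1.66). The young choroid plexus had 0 Rgs16 UMIs in its 70 Tnfsf8-positive cells. Over the pooled classes, cells positive for Gzmk held less Rgs2 than others, at 4.07 (1 UMI) against 36.2 CPM in young meninges, 44.6 against 88.1 in aged meninges and 5.85 against 16.8 in aged choroid plexus, while 6.23 against 11.3 in young choroid plexus had an interval that included 1. Within CD4 T cells of the aged libraries and CD8 T cells of all 4, every interval included 1, and the aged meningeal neither T cells were at 36.3 against 92.9 CPM (0.216 to 0.66). Itgae-positive cells held more Rgs10 than others in aged meninges (203 against 113 CPM, 1.13 to 2.75) and aged choroid plexus (197 against 134 CPM, 1.10 to 1.92). In young meninges they held 204 against 251 CPM, with an interval that included 1.

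Across the 12 profiles the members with the most alike log2(CPM + 10) levels were Rgs1 and Rgs2 (Pearson's r 0.89) and Rgs1 and Rgs16 (0.88), and Rgs10 ran against Rgs1 (-0.68) and Rgs3 (-0.74). The 12 points share 4 libraries, with their depth and early response level, so these are descriptions. Of 7786 genes with at least 100 UMIs, those most alike were Gadd45b (0.97), H2-Q4 (0.96) and Tnf (0.96) for Rgs1, and Dusp1 (0.97), Hspa1b (0.97) and Tnfaip3 (0.95) for Rgs2. Nsg2 (0.97), Tmem71 (0.97) and Stk38 (0.96) were nearest to Rgs10, Bcl2a1d (0.95), Bcl2a1b (0.93) and Mfng (0.93) to Rgs16, and Lgalsl (0.90), Thy1 (0.90) and Id2 (0.89) to Rgs3. Coro1a (0.94), Sqstm1 (0.93) and Tsc22d2 (0.92) were nearest to Rgs14, and Retreg3 (0.95), Max (0.92) and Taf8 (0.92) to Rgs19. H2-Q4, Hspa1b and the Bcl2a1 genes have near-identical copies that can share reads. Within the aged meninges, 10.4% of thinned cells with an Rgs1 UMI had an Rgs2 UMI, against 4.92% of those without.

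Other parts of the pathway were counted by the same rule of size. Of all genes with enough UMIs, 6.1%, 5.03% and 4.86% passed with age, in either direction, in meningeal CD4, CD8 and neither T cells. In the choroid plexus 9.19%, 3.33% and 6.44% did. In lists with so few judged genes, a count of 0 or 1 is not read as a result about the list. Of 16 other RGS family genes, Rgs4, Rgs5, Rgs7, Rgs13, Rgs17, Rgs21 and Rgs22 were at 0 UMIs. The most abundant were Axin1 (212 UMIs) and Axin2 (153 UMIs), which carry an RGS domain but act as scaffolds in Wnt signalling, and Axin1 was 5.68 CPM in young and 25.4 in aged meningeal CD8 T cells. Of 32 G-protein subunit and regulator genes, 12 to 14 had enough UMIs per age comparison. In CD4, CD8 and neither T cells 1, 1 and 3 of them were higher in aged meninges and 3, 0 and 3 in aged choroid plexus, and 0 were lower. Gna15, a Gq-type alpha subunit of blood cells, was 21.2 and 53.1 CPM in young and aged meningeal neither T cells and 16.1 and 48.1 CPM in choroid plexus ones. The gamma subunit Gng2 was 47.8 and 114 CPM, and 49.6 and 123 CPM, in the same cells.

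Receptors moved in both directions, and their counts stand beside the same shares of all genes. Of 17 Gi-coupled chemoattractant and lipid receptors, 4 were higher and 2 lower of 12 judged in aged meningeal CD4, 5 and 3 of 11 in CD8, and 3 and 2 of 13 in neither T cells. In the choroid plexus the counts were 5 and 1 of 9, 1 and 2 of 9, and 4 and 2 of 11. Ccr7 was lower in all 6 comparisons, for example 543 and 63.2 CPM in young and aged meningeal CD4 T cells, and S1pr1, the sphingosine 1-phosphate receptor for tissue exit, was 317 and 151 CPM in meningeal and 291 and 125 CPM in choroid plexus neither T cells. Cxcr3 was 106 and 289 CPM in young and aged meningeal CD4 T cells and 78.5 and 183 CPM in choroid plexus ones. Of 17 Gs-coupled receptors and cyclic AMP enzymes, 1 of 10, 3 of 9 and 1 of 11 judged were higher in aged meningeal CD4, CD8 and neither T cells and 0 lower. In the choroid plexus 2 of 8, 1 of 8 and 1 of 10 were higher, and Pde4b, which breaks down cyclic AMP, was lower in CD4 and neither T cells. The prostaglandin E2 receptors Ptger2 (6.77 and 29.6 CPM in meningeal CD4, 0 and 42.9 in choroid plexus CD4) and Ptger4 (10.4 and 34.2 CPM in meningeal CD8, 6.30 and 24.8 in choroid plexus CD8) were higher with age in both tissues. Of 7 receptor kinase and arrestin genes, which end receptor signals by another route, 3 were judged and 0 passed the rule in any age comparison, with medians from -0.74 to -0.26.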

How the data were processed

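Sorted T cells from 4 libraries were profiled by droplet scRNA-seq of 5′ transcript ends. The deposited values are raw counts of UMIs for each gene in each cell, which the authors obtained from Cell Ranger (3.1.0 per the file headers, 5.1.0 with STAR and mm10 per the submitters' processing notes), and the annotation release is not given in the sources used here. The study's limits (200 to 7000 genes, at most 5% mitochondrial UMIs) were applied and left 1035, 631, 1436 and 1106 of 1111, 718, 1695 and 1277 called cells, listed as young meninges, young choroid plexus, and the aged meninges and choroid plexus. Scrublet (scanpy 1.11.5), used in place of DoubletFinder, then marked 16, 22, 0 and 5 doublets, so doublets can remain, above all in the aged libraries. Cells without a Cd3 UMI (12, 4, 28 and 7) were left out, as were those with both Cd4 and Cd8 UMIs.

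UMIs were summed per library and class (496785 to 1735559 UMIs) and scaled to CPM. Ratios used log2(CPM + 10), and the rule of size stands in for a test. Gates needed at least 20 cells. Shares used exact binomial intervals after thinning to 1000 UMIs. Genes with 0 UMIs in a group were bounded by 3 counts per library. Likeness was Pearson's r over genes with at least 100 UMIs, leaving out ribosomal protein, mitochondrial, immunoglobulin and T-cell receptor genes. Of each pathway list, the genes past the rule in the same class and direction in both tissues and the 2 most abundant could be named. The members, lists, gates and rules were chosen with earlier results of these data known. The rule of size for the age comparisons and the Poisson intervals were tried on simulated counts, drawn without any grouping of UMIs by cell. The other steps were not tried on simulated data. Alternatives changed the pseudocount (1 or 50 CPM), UMI minimum, cell limits, doublet removal, scaling (edgeR 4.0.16 in R 4.3.3, for TMM factors only), depth, weighting of cells and class calls. Python 3.11.15, numpy 2.4.6, scipy 1.17.1, pandas 2.3.3 and matplotlib 3.10.9 were used. A marker gene of the lists is not reported here.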

Additional observations from a re-analysis of the deposited data

Results flagged for a closer look

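All 7 members were also detected in cells that no comparison used. In the 97 T cells with both Cd4 and Cd8 UMIs, summed over the 4 libraries, Rgs1 measured 233, Rgs2 25.9, Rgs3 33.8, Rgs10 197, Rgs14 39.8, Rgs16 51.7 and Rgs19 71.6 CPM, each above the 5.97 CPM that 3 counts allow. In the 51 cells without a Cd3 UMI, Rgs1 measured 124 CPM (14 UMIs) and Rgs10 44.3 CPM (5 UMIs), above a limit of 26.6 CPM. No explanation was tested for either.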

How the results depend on the processing

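The number of member comparisons past the rule of size was 8 for age in the meninges, 6 for age in the choroid plexus, 7 for tissue in young and 6 for tissue in aged mice, and 2 for CD8 against CD4. There were 42 member comparisons for age, 42 for tissue and 28 for CD8 against CD4. In the order of the counts, 4.86% to 6.1%, 3.33% to 9.19%, 2.07% to 3.75%, 1.38% to 2.26% and 2.81% to 4.51% of all judged genes passed. Shares of all genes under the alternatives are not given, so the changes below are not read as results about the members. A pseudocount of 50 CPM gave 4 and 3 for age in the meninges and choroid plexus, 2 for tissue in young mice and 0 for CD8 against CD4. A minimum of 50 UMIs gave 4 for tissue in young mice and 1 for CD8 against CD4, thinning gave 3 and 1, and cells without a Fos or Dusp1 UMI, chosen after seeing the data, gave 3 and 1, with 2 for tissue in aged mice. Leaving out cells with markers of other types gave 4 for tissue in young mice, and classes from at least 2 UMIs gave 4 for CD8 against CD4. Only the larger changes of these counts are given, and counts left out did not all stay equal. Rgs2 with tissue in young neither T cells, for example, fell under the rule in 5 of 13 alternatives. In aged CD8 and neither T cells it did so in 2 of 13 each. Of log2 ratios, 1362 stayed within the counting interval of the main value, 92 left it, and 2 that passed the rule turned: Rgs16 with age in meningeal CD4 to -0.14 with classes from at least 2 UMIs, and Rgs2 with age in meningeal CD8 to -0.57 without Fos or Dusp1 cells. Both of these turned values had intervals that included a ratio of 1. The causes of the changes were not tested. Over the 13 alternatives, the Rgs1 age difference ran from 0.90 to 1.64 in meningeal and 1.23 to 2.30 in choroid plexus CD4 T cells, and that of Rgs10 from -1.53 to -1.09 in meningeal CD8 T cells. With gates from at least 2 UMIs, 163 gated levels stayed within their main interval and 33 left it. Low counts limit Rgs2 and Rgs16 in the choroid plexus. No paired analysis was possible because each group has 1 library.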
